A study of Mus musculus with 8 samples.

Results

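Heat shock proteins are chaperones, proteins that bind unfolded or newly made polypeptides and help them to fold, to stay soluble or to be degraded. The genes described here are 10 heat shock and chaperone genes taken by name from the deposited table of raw counts: Hspa1a, Hspa1b, Hspa8, Hsph1, Dnajb1, Hsp90aa1, Cryab, Hspb1, Hspb8 and Bag3. They are 10 of 55414 genes in the table, and all 10 passed the filter on low counts that left 15150 genes for testing. RNA came from passage 2 mouse cardiac fibroblasts, the stromal cells of the heart, given an adenovirus for either green fluorescent protein (GFP, the control) or Has2, the gene of hyaluronan synthase 2. Each virus had 4 libraries, numbered 1 to 4, of which numbers 1 and 2 were female and 3 and 4 male.

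All 8 cultures shared the rest of their history. The cells had no serum for 24 h, met the virus for 5 h and then spent 48 h in a medium listed with bFGF and TGF-beta at 20 ng/mL, so the GFP cultures were themselves infected and growth factor treated, and no uninfected culture is analysed here. The labels name the strain as C57BL/6J and the genotype as wild type, while the protocol text names Has2 fl/fl animals and also lists a Cre adenovirus; cultures given Cre are not analysed here. The age of the animals, the promoter of the virus and whether cultures came from separate animals are not given in the labels used here, and the p-values below measure no more than the spread between these samples, which may be technical. Libraries of the same number carry the same preparation identifier under both viruses, and the viruses were compared within these 4 pairs. Female preparations have identifiers of one series and male preparations of another, which means that the sex of the cells and the series of preparation cannot be told apart.

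In a cell under protein-damaging stress, heat shock factor 1 (HSF1) leaves its complex with chaperones, assembles into trimers and binds heat shock elements, arrays of the letters GAA and their complement TTC, ahead of the inducible chaperone genes. HSP70 proteins bind and release clients in a cycle driven by ATP. J-domain proteins start the cycle, HSP110 proteins and BAG-domain proteins end it by exchanging the nucleotide, HSP90 takes over partly folded kinases and receptors, and small heat shock proteins hold unfolding clients without using ATP. Hspa8 and the Hsp90ab1 form of HSP90 are made at all times, while Hspa1a, Hspa1b and Hsp90aa1 are the strongly inducible forms. In the heart, Cryab, Hspb8 and Bag3 are known for protecting muscle proteins, and their mutations cause muscle disease in people.

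Libraries held 46981231 to 55795187 counts. Levels are given as CPM, counts scaled to library sizes that were adjusted with the trimmed mean of M values (TMM), and changes as log2 ratios of Has2 to GFP. Has2 itself lay between 7.36 and 25.2 CPM in the GFP libraries and between 3209 and 9533 CPM in the Has2 libraries, so the target gene matched the labels. All 10 fibroblast markers were tested and summed to 19744 to 31748 CPM under GFP and 18925 to 33604 CPM under Has2. The 10 cardiomyocyte markers summed to at most 11.9 CPM in any library, with 8 of them below 1 CPM throughout, among them Myh6, Tnni3 and Ryr2. Macrophage markers summed to 666 to 1640 CPM under GFP and 674 to 1588 CPM under Has2, endothelial markers to 26.0 to 44.1 and 23.9 to 44.9 CPM, and smooth muscle and pericyte markers to 742 to 1068 and 795 to 1229 CPM; their part in the results was not tested. Transcripts of 8 immediate early genes, which answer stress and growth factors at once, summed to 388 to 449 CPM under GFP and 349 to 458 CPM under Has2. In bulk RNA fewer cells of a type and less RNA per cell cannot be told apart.

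None of the 10 genes passed the test for a difference between the viruses over all 4 pairs. The test was edgeR's quasi-likelihood F-test with the replicate number as a block, with calls made at an adjusted p (Benjamini-Hochberg, over all 15150 genes) under 0.05, and it called 0.00660% of them, which is Has2 alone. At an unadjusted p under 0.05 stood 3 of the 10, Hspa1b, Hspa1a and Cryab, where 7.49% of all genes did. The same 3 genes were higher with Has2 in all 4 pairs, as were 9.16% of all genes, and 0 of the 10 were lower in all 4, where 7.96% of all genes were. DESeq2 with the block called 1 of the 10, Hspa1b, against 0.403% of all genes, and limma-voom with the block called 0. In every one of the 10 genes the GFP and Has2 libraries overlapped, while 2.38% of all genes had groups that did not. The median log2 change was 0.14 over the 10 genes and -0.02 over all genes tested.

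**Figure D1:**
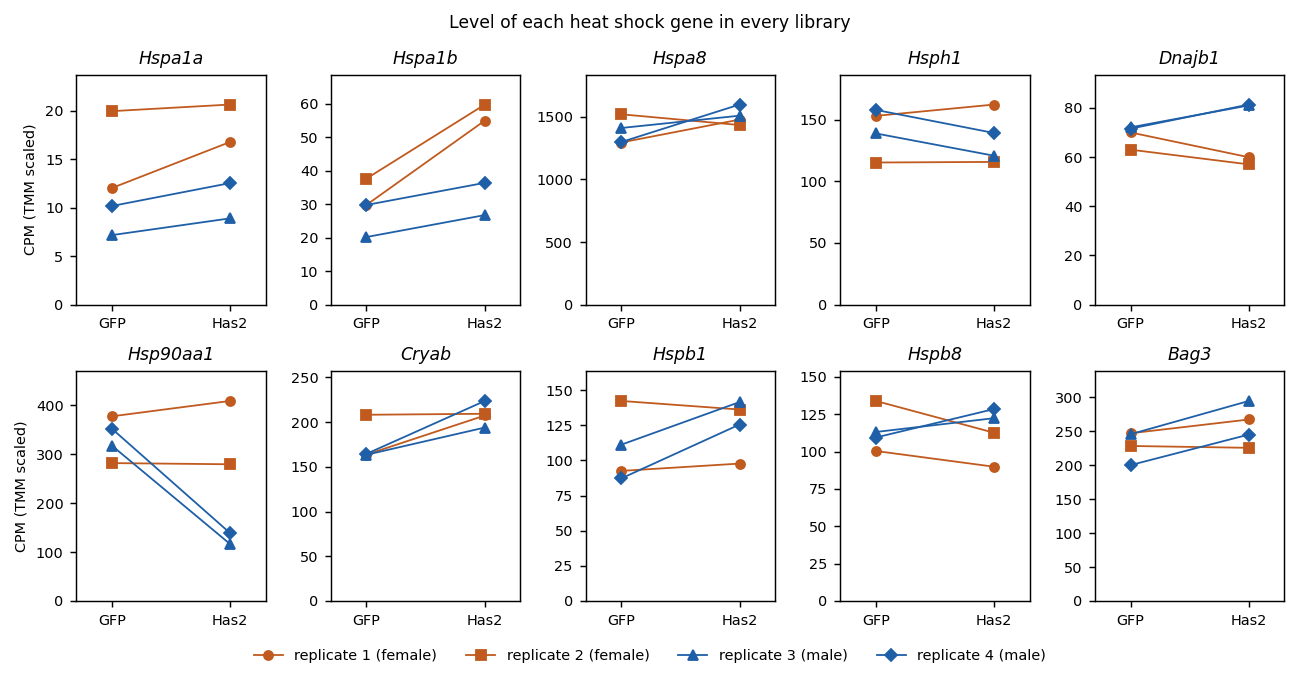
Levels (CPM) of the 10 heat shock genes in each library, one panel per gene, on axes that start at 0. Points are single libraries and lines join the GFP and Has2 libraries of the same replicate number, in orange for female and blue for male; the lines of Hsp90aa1 run from 318 and 353 down to 116 and 139 CPM in the male pairs, and those of Hspa1b from 29.8 and 37.7 up to 55.0 and 59.8 CPM in the female pairs.

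Among the HSP70 genes, Hspa1b and Hspa1a encode the inducible cytosolic HSP70 in near-identical copies on chromosome 17. Their coding stretches of 1929 and 1926 bases were 99.43% identical, with 8 mismatched and 3 gapped positions and one identical run of 638 bases, while the stretches after the coding part were 48.09% identical. How the authors' counting divided reads that match both is not known here, so the split between them is uncertain and their sum is given as well. Upstream, the copies are also alike, and the pair is shown because its promoters hold the same GAANNTTC letters, paired units of a heat shock element, at the same place. The 250 bases before each annotated start, from RefSeq on GRCm38.p6, read 5′ to 3′ on the minus strand with the GAANNTTC match in capitals, at chr17:34972157-34972406 for Hspa1a and chr17:34959239-34959488 for Hspa1b:
Hspa1a: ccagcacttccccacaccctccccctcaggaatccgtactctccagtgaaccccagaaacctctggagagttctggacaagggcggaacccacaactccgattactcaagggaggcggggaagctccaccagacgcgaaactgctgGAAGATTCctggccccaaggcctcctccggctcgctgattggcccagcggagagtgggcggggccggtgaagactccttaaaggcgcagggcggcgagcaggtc
Hspa1b: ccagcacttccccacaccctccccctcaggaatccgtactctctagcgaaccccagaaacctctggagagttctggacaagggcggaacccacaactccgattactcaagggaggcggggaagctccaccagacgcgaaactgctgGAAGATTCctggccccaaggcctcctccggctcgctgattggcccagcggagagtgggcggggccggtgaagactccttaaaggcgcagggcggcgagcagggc
The letters GAAGATTC began 104 bases before the start in both. Counted from 1 at the 5′ end of these stretches and written from Hspa1a to Hspa1b, the copies differed at C44T, T47C and T249G, and none of these lies in the match.

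Hspa1b stood at 29.8, 37.7, 20.2 and 29.8 CPM in GFP replicates 1 to 4, and at 55.0, 59.8, 26.8 and 36.4 CPM in Has2 replicates 1 to 4. Every Has2 library was above its own GFP partner, with female libraries above male ones within the Has2 group, but the male Has2 libraries lay within the range of the GFP group. The log2 changes of the pairs were 0.88, 0.67, 0.41 and 0.29. Over the 4 pairs the log2 change was 0.56 with a standard error (SE) of 0.13, a 95% interval of 0.26 to 0.86, an unadjusted p of 0.00316 and an edgeR adjusted p of 0.646, a 1.48-fold higher level that did not pass. DESeq2 with the block gave 0.58 and an adjusted p of 0.0342.

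Hspa1a was the lower of the copies. GFP replicates 1 to 4 had 12.0, 20.0, 7.17 and 10.2 CPM, and Has2 replicates 1 to 4 had 16.8, 20.6, 8.90 and 12.5 CPM. Each Has2 library was again above its partner, by the least in replicate 2, and the groups overlapped widely because the libraries of replicate 2 were high and those of replicate 3 low under both viruses. The log2 change was 0.29 with an SE of 0.11 and a 95% interval of 0.01 to 0.56 (edgeR adjusted p 0.648). Summed over the copies, the level was 41.7 ± 12.4 CPM with GFP and 59.2 ± 20.6 CPM with Has2 (SD, n = 4 each), a log2 change of 0.48 (SE 0.11, 95% interval 0.22 to 0.75, edgeR adjusted p 0.648). Hspa1b held 71.3%, 65.4%, 73.8% and 74.6% of the summed level in GFP replicates 1 to 4 and 76.6%, 74.3%, 75.1% and 74.4% in the Has2 libraries, a difference that did not pass a two-sided exact permutation test over the 4 pairs (p = 0.25; 4 pairs cannot reach a p under 0.05).

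Hspa8 encodes the constitutive HSP70 that also strips clathrin from vesicles, and it was the most abundant of the 10 genes per length. Its level was 1295, 1521, 1411 and 1299 CPM in the GFP libraries and 1479, 1435, 1509.8 and 1599 CPM in the Has2 libraries. Replicate 2 went slightly down and the other pairs up, and the groups overlapped. The log2 change was 0.13 with a 95% interval of -0.12 to 0.37 (edgeR adjusted p 0.722).

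Hsph1 encodes HSP110, the nucleotide exchange factor of HSP70, and Dnajb1 encodes HSP40, the J-domain partner of inducible HSP70. Hsph1 had 153, 115, 139 and 158 CPM with GFP and 162.5, 116, 121 and 139 CPM with Has2. The female pairs were level or slightly higher with Has2, the male pairs slightly lower, and the log2 change over all pairs was -0.07 with a 95% interval of -0.30 to 0.15. Dnajb1 had 70.0, 63.0, 72.1 and 71.5 CPM with GFP and 59.9, 57.0, 81.0 and 81.3 CPM with Has2. Both female pairs went down and both male pairs went up, so that the Has2 libraries lay on either side of the GFP group and the mean log2 change was -0.00 with a 95% interval of -0.27 to 0.26.

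Hsp90aa1, the inducible cytosolic HSP90, showed the widest split of the 10 genes between the sexes. GFP replicates 1 to 4 had 378, 282, 318 and 353 CPM, and Has2 replicates 1 to 4 had 409, 279.6, 116 and 139 CPM. The male Has2 libraries were below every other library, and the female Has2 libraries lay above and below the female GFP ones. The log2 changes of the pairs were 0.12, -0.01, -1.45 and -1.35, and over all 4 pairs the change was -0.67 with an SE of 0.30 and a 95% interval of -1.38 to 0.04 (edgeR adjusted p 0.648). Hsp90ab1, the constitutive HSP90, had 2140, 2388, 2269 and 2062 CPM with GFP and 2208, 2017, 2377 and 2289 CPM with Has2. Set against it, Hsp90aa1 was 0.176, 0.118, 0.140 and 0.171 of the Hsp90ab1 level in the GFP libraries, 0.185 and 0.139 in the female Has2 libraries and 0.0489 and 0.0606 in the male Has2 libraries. This ratio of CPM is not corrected for transcript length and serves to compare libraries, not the genes.

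Of the small heat shock genes, Cryab encodes alpha-B crystallin, which binds desmin and actin filaments, Hspb1 encodes HSP27, which binds actin, and Hspb8 encodes HSP22, which works in a complex with Bag3. Cryab had 164, 208, 164 and 165 CPM with GFP and 207.5, 209, 194 and 224 CPM with Has2. Apart from GFP replicate 2 every GFP library was below every Has2 library, and that library stood with the Has2 group. Over the pairs this came to a log2 change of 0.26 with an SE of 0.10 and a 95% interval of 0.02 to 0.50 (edgeR adjusted p 0.648).

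Hspb1 had 92.5, 142, 111 and 87.1 CPM with GFP and 97.7, 136, 141.5 and 125.5 CPM with Has2, with clear gains in the male pairs and level female pairs. Its log2 change over all pairs was 0.22 with a 95% interval of -0.06 to 0.51. Hspb8 had 100.4, 134, 113 and 109 CPM with GFP and 89.8, 112.5, 122 and 128 CPM with Has2. Female pairs went down and male pairs up, and the log2 change was -0.02 with a 95% interval of -0.28 to 0.25. Bag3, the co-chaperone that joins HSP70 to Hspb8 and steers clients to autophagy, had 247, 228, 246 and 200.2 CPM with GFP and 267, 226, 295 and 245 CPM with Has2. Bag3 was level in replicate 2 and higher in the other pairs, by a log2 change of 0.16 with a 95% interval of -0.06 to 0.38.

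The letters of such paired units were looked for in the other promoters too. The motifs searched were GAANNTTC and TTCNNGAA, each of which reads the same on both strands and which overlap where GAA or TTC is shared. RefSeq promoters of GRCm38.p6, each 250 bases before to 50 bases after an annotated start, were at hand for 7 of the 10 genes (9 promoters) and not for Hspa8, Hsp90aa1 and Cryab. At least 1 of the motifs was found in 7 of these 9 promoters and in 6 of the 7 genes, all except Dnajb1, while 15.1% of all 32851 mouse promoters of the table held one. The promoters are not all separate, since those of Hsph1 overlap and hold the same matches, and those of Hspa1a and Hspa1b are near-identical. In the 250 bases before the start alone, 12.8% of all promoters held a motif, and those of Hspb8 and Bag3 did not. The promoters of Hspb1 and Hsph1 are shown because they hold matches before the start in different arrangements. In Hspb1, on the plus strand at chr5:135887669-135887918, GAAGTTTC began 117 and GAACCTTC 97 bases before the start. In Hsph1, on the minus strand at chr5:149636337-149636586, TTCTCGAA began 33 bases before the start:
Hspb1: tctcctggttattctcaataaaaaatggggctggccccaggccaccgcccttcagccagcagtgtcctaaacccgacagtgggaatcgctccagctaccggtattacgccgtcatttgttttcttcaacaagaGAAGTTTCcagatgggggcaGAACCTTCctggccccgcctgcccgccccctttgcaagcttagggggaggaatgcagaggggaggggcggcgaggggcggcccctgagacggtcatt
Hsph1: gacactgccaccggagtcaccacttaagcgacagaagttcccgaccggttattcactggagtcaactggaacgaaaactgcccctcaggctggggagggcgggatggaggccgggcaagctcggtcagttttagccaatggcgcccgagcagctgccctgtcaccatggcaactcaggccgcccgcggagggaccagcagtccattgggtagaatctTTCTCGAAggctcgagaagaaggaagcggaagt
Past its start Hsph1 also had overlapping matches that share a GAA, TTCTGGAA beginning at base 37 and GAAAGTTC at base 42; such a run of 3 alternating units was in 0.603% of all promoters. In Hspb8 and Bag3 the match, GAAGTTTC, lay past the start. A match is a description of letters and does not show that a factor binds there.

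Levels of different genes can be set side by side only per length of transcript, here the longest one annotated for each gene. In the GFP libraries Hspa8 had 438 ± 34.0 CPM per kilobase, Cryab 157 ± 19.9, Hspb1 116 ± 26.8, Hsp90aa1 101 ± 12.7, Bag3 89.9 ± 8.52 and Hspb8 62.9 ± 7.80 (SD, n = 4). Hsph1 followed at 29.7 ± 4.02, Dnajb1 at 23.1 ± 1.40, Hspa1b at 10.5 ± 2.55 and Hspa1a at 4.16 ± 1.84 CPM per kilobase. From Cryab down to Bag3 the ranges of mean ± SD of neighbouring genes overlapped, while Hspa8 stood clear above them and each gene from Hspb8 down clear below the one before it. As counted, the inducible HSP70 copies were the lowest of the 10 genes and the constitutive Hspa8 the highest in the control cultures; whether reads that match both copies were counted is not known here, so the levels of the copies may be too low.

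Male and female GFP cultures were compared in a separate edgeR fit of these 4 libraries. It called 0 of the 10 genes, where 0.0260% of the 15366 genes in that fit were called, and 1 of the 10, Hspa1a, had an unadjusted p under 0.05, where 4.24% of all genes did. Hspa1a averaged 15.99 CPM in the female and 8.67 CPM in the male GFP cultures, a log2 difference of -0.88 (SE 0.33, 95% interval -1.66 to -0.09, unadjusted p 0.0336). The other genes of the 10 had differences between -0.43 (Hspa1b) and 0.15 (Hsph1). Without replicate 1 the log2 difference of Hspa1a was -1.20, which passed, and without replicate 2 it was -0.46 (adjusted p 0.663), which did not; each of these fits holds 1 female library, assumed to vary like the male ones. DESeq2 on the same libraries called 0 of the 10.

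The response to the Has2 virus differed between the male and the female pairs for 5 of the 10 genes, where 29.5% of all genes tested differed. The test was the difference of the log2 changes, male minus female, in a model with a change for each sex and the replicate number as a block. Hsp90aa1 and Hspa1b had the lower change in males, and Hspb1, Hspb8 and Dnajb1 the higher one. Without the block 0 of the 10 genes and 0% of all genes passed, although 2014 genes had an unadjusted p under 0.05, and the DESeq2 fit with the block called 3 of the 10, Hsp90aa1, Hspb1 and Hspb8, against 23.7% of all genes. Each sex had 2 pairs.

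In the female pairs Hspa1b rose, by 0.78 on the log2 scale (SE 0.09, edgeR adjusted p 0.002). It was the 1 gene of the 10 to pass there, where 7.23% of all genes passed, 2.40% rising and 4.83% falling. In the male pairs 5 of the 10 passed, where 24.9% of all genes did; 4 rose and 1 fell, where 5.68% of all genes rose and 19.2% fell. Hspb1 rose by 0.44 (SE 0.09, edgeR adjusted p 0.00405), Hspa1b and Cryab by 0.35 each (adjusted p 0.0216 and 0.032) and Bag3 by 0.28 (adjusted p 0.0387). Hsp90aa1 fell by 1.40 on the log2 scale (SE 0.09, edgeR adjusted p 6.41e-06). A fit without 1 replicate pair leaves 1 pair in that sex, which is then assumed to vary like the pairs of the other sex. With each pair left out in turn the female rise of Hspa1b was 0.69 to 0.89 and the male fall of Hsp90aa1 -1.40 to -1.34, all past the threshold under that assumption; the male rises of Hspa1b, Cryab and Bag3 did not pass without replicate 3 (0.29, 0.45 and 0.30) or without replicate 4 (0.45, 0.29 and 0.31), and that of Hspb1 did not without replicate 4 (0.40). Without the block only the male fall of Hsp90aa1 passed (-1.39, adjusted p 0.0455), while Hspa1b in the female pairs was at 0.77 with an adjusted p of 0.996. Over the 10 genes the median log2 change was 0.05 for female pairs and 0.24 for male pairs, against -0.01 and 0.04 over all genes tested.

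For Hsp90aa1 the change in males was lower than in females by -1.45 (SE 0.13, 95% interval -1.73 to -1.17, edgeR adjusted p 3.86e-05). With 1 replicate pair left out it was between -1.51 and -1.37 and passed, with the lone pair of a sex again assumed to vary like the other sex. Without the block it was -1.46 with an adjusted p of 0.164. Its fall in the male pairs lay at percentile 1.87 of the changes of all genes. The difference for Hspa1b was -0.43 (SE 0.13, adjusted p 0.0321), which no longer passed without replicate 1, 3 or 4, at -0.30, -0.48 and -0.34. For Hspa1a and Hspa1b summed the difference was -0.29 (SE 0.14, edgeR adjusted p 0.131) and did not pass. Hspb1 differed by 0.43 (adjusted p 0.0255), Hspb8 by 0.38 (0.0357) and Dnajb1 by 0.36 (0.0375). Hspb1 and Hspb8 passed only without replicate 1 and Dnajb1 only without replicate 2 when 1 pair was left out, at 0.52, 0.44 and 0.40. For the other 5 genes the difference did not pass, with 95% intervals from -0.34 to 0.43 for Hspa1a and from -0.50 to 0.02 for Hsph1.

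**Figure D2:**
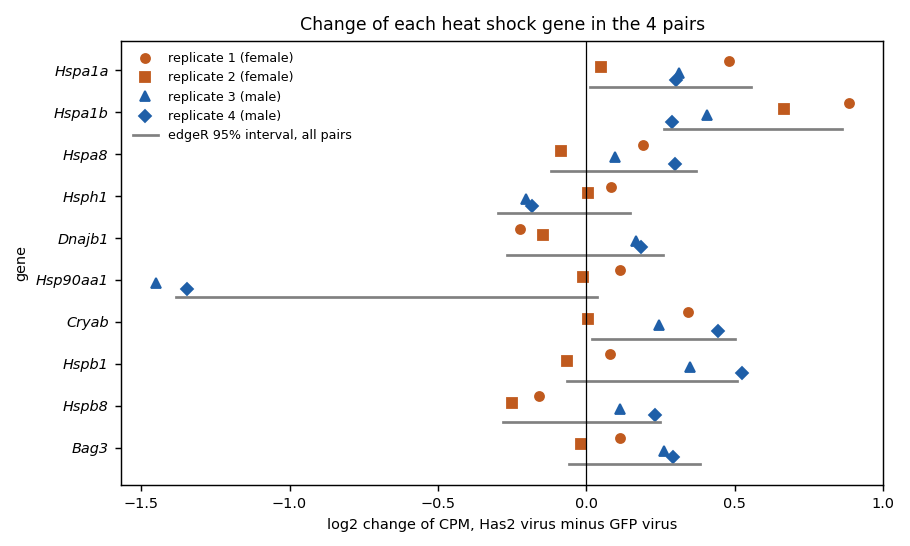
Log2 change from GFP to Has2 in each of the 4 replicate pairs for the 10 heat shock genes, from TMM-scaled CPM; symbols mark the pairs, orange is female and blue male, grey bars are the edgeR 95% intervals over all pairs and the line at 0 marks no change. Hsp90aa1 lies near 0 in the female pairs (0.12 and -0.01) and far below in the male pairs (-1.45 and -1.35), and Hspa1b, Hspa1a and Cryab lie above 0 in all 4.

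GC content of the transcripts moved with the change in every pair, in opposite directions in the sexes. Across all genes with a known GC content the rank correlation of the change with GC was -0.22 and -0.17 in the female pairs and 0.66 and 0.64 in the male pairs; genes are not independent replicates. Weighted by counts, the mean GC content of the male Has2 libraries was 51.6% and 51.3%, above the 50.4% to 50.9% of the GFP libraries, and that of the female Has2 libraries was 50.0% and 50.7%. The 10 genes ran from 43.7% GC for Hsp90aa1, over 45.9% for Hspa8 and 47.3% for Hsph1, to 58.1% for Hspa1b, 58.9% for Hspa1a and 61.7% for Hspb1. Mitochondrial transcripts made up 0.417% and 0.603% of the male Has2 libraries and 0.909% to 1.88% of the female ones, against 0.662% to 1.02% under GFP; their part in the result was not tested.

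With a smooth trend of GC content and transcript length removed from every library, the difference between the sexes passed for 2 of the 10 genes, where 11.2% of all genes passed. Both kept the lower change in males. Hsp90aa1 differed by -1.12 (SE 0.10, edgeR adjusted p 0.00215). It fell in the male pairs (log2 change -1.09, edgeR adjusted p 0.000342) and had a log2 change of 0.02 in the female pairs. Hspa1b differed by -0.83 (SE 0.12, adjusted p 0.00435), with a rise of 0.84 in the female pairs (adjusted p 0.00292) and 0.01 in the male pairs. For Hspa1a and Hspa1b summed the difference was -0.70 (edgeR adjusted p 0.00984). Cryab then rose in the female pairs, by 0.38 (adjusted p 0.0395), so that 2 of the 10 rose there against 0.640% of all genes. In the male pairs 0 of the 10 rose against 3.44% of all genes, and Hsp90aa1 alone fell, where 10.8% of all genes did. The male rises of Hspb1, Cryab and Bag3 became 0.07, 0.05 and -0.04, and the differences of Hspb1, Hspb8 and Dnajb1 became -0.17, -0.03 and 0.05. The median change of the 10 genes was then 0.09 for female pairs and -0.04 for male pairs, against -0.02 and -0.09 over all genes tested. Removing the trend shifted the difference between the sexes by a median of -0.11 over all genes.

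**Figure D3:**
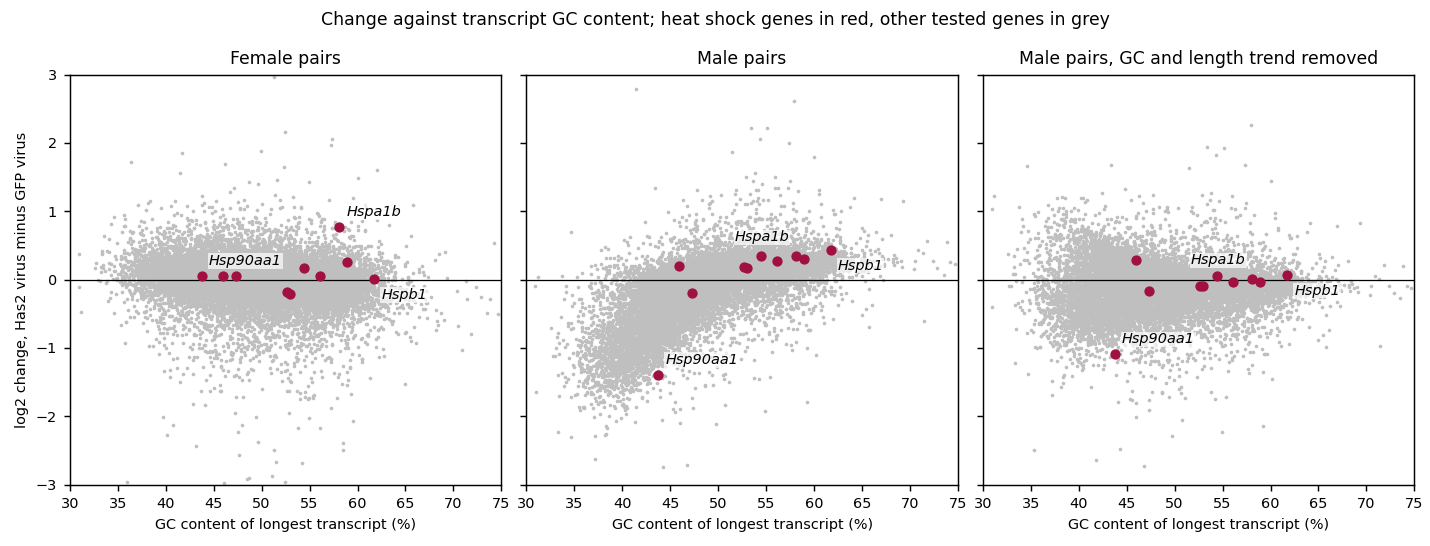
Log2 change from GFP to Has2 against GC content (percent) of each gene's transcript, for female pairs, male pairs and male pairs after the GC and length trend was removed; grey points are all genes and red points the 10 heat shock genes. In the male pairs the grey cloud rises from left to right. Hsp90aa1 at 43.7% GC lies on its lower edge and Hspb1 at 61.7% GC near its right end. With the trend removed Hsp90aa1 lies at -1.09. The 3 panels leave out 46, 37 and 36 genes, which lie outside the axes or have no known GC content.

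The rest of the chaperone system was taken from 8 lists of 59 genes, of which 56 were tested. For the virus over all 4 pairs 0 of the 56 passed and 4 had an unadjusted p under 0.05 (7.49% of all genes), namely Hspb6, Hspb7, Cct4 and Cct8. For the difference between the sexes 22 of the 56 passed (29.5% of all genes), 10 with the higher and 12 with the lower change in males, and after removal of the GC and length trend 11 did (11.2% of all genes). In the male pairs 6 rose and 15 fell (5.68% and 19.2% of all genes), and in the female pairs 3 rose and 2 fell (2.40% and 4.83% of all genes). The medians over the 56 genes were -0.03 for female pairs and 0.04 for male pairs.

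The heat shock factor genes were 4, the HSF transcription factors and the HSF1-binding Hsbp1. Of these 1 passed for the difference between the sexes (29.5% of all genes). It was Hsf2, which fell by 0.71 in the male pairs (log2 change -0.71, SE 0.10, edgeR adjusted p 0.000269). After removal of the GC and length trend its male change was 0.20. Hsf1, the main stress-responsive factor, had 31.5 ± 2.96 CPM with GFP and 35.1 ± 2.86 CPM with Has2 (SD, n = 4), higher in all 4 pairs by a log2 change of 0.15 that did not pass (unadjusted p 0.159). Of the 13 genes of HSP90 and its co-chaperones 9 passed for the difference between the sexes, where 29.5% of all genes did. Of the 9, 4 had the higher and 5 the lower change in males. The lower ones included Cacybp, which binds the calcyclin and Siah1 proteins, with a fall of 1.31 in the male pairs (log2 change -1.31, edgeR adjusted p 9.5e-06), Chordc1, an HSP90 co-chaperone, at -0.96 (adjusted p 2.37e-05), and Ptges3, the p23 co-chaperone that steadies the closed HSP90, at -0.82 (adjusted p 0.000129). Without the GC and length trend the male changes were -0.73 for Cacybp, 0.04 for Chordc1 and -0.46 for Ptges3. The difference between the sexes then passed for 3 of the 13 (11.2% of all genes). These include Cacybp and Ptges3, and also a gene that was not among the 9.

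Among 9 other HSP70 and HSP110 genes 4 passed for the difference between the sexes, where 29.5% of all genes did. Hspa4l, an HSP110 gene, rose by 0.42 in the female pairs (edgeR adjusted p 0.0448) and fell in the male pairs at -1.03 (adjusted p 5.16e-05), and Hspa13, an HSP70 of microsomes, fell in the male pairs at -0.92 (adjusted p 4.64e-05). None of these changes of Hspa4l and Hspa13 passed without the GC and length trend. Hspa4l was then at 0.11 in female pairs and -0.21 in male pairs, and Hspa13 at -0.26 in the male pairs. For the difference between the sexes 1 of the 9 genes then passed (11.2% of all genes), Hspa12a, at -0.46 (edgeR adjusted p 0.0341). Of 8 other J-domain genes 2 passed (29.5% of all genes), and both had the lower change in males. Dnajb4, a close relative of Dnajb1, rose by 0.32 in the female pairs (adjusted p 0.0462) and fell in the male pairs at -0.91 (adjusted p 2.52e-05), and Dnaja1, a partner of Hspa8, fell there at -0.76 (adjusted p 0.000113). Their differences between the sexes without the GC and length trend were -0.56 for Dnajb4, which passed, and -0.04 for Dnaja1, which did not.

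Only 3 of 6 other small heat shock genes were tested. Hspb6, the HSP20 of muscle, had 9.06 ± 2.11 CPM with GFP and 13.1 ± 3.52 CPM with Has2 and was higher in all 4 pairs, by a log2 change of 0.52 over the pairs (unadjusted p 0.00285, not past the adjusted threshold). It rose by 0.56 in the female and by 0.50 in the male pairs (edgeR adjusted p 0.0275 and 0.0154). Hspb7 was higher in all 4 pairs by 0.29 (unadjusted p 0.0164) and rose in the male pairs by 0.30 (adjusted p 0.0277), and Hspb2 had a log2 change of -0.13 over the 4 pairs. With the GC and length trend removed neither male change passed, at 0.19 for Hspb6 and -0.03 for Hspb7. In the female pairs 2 of the 3 tested genes then rose, where 0.640% of all genes did. The difference between the sexes then passed for 1 of the 3 (11.2% of all genes), with the lower change in males. All 8 subunits of TRiC, the chaperonin that folds actin and tubulin, had a negative log2 change over the 4 pairs, as did 8295 of all 15150 genes, and 0 passed; 4 of them were lower in all 4 pairs (7.96% of all genes). Cct4 was at 229.9 ± 16.9 CPM with GFP and 186 ± 19.9 CPM with Has2 (log2 change -0.31, unadjusted p 0.00965). Of 8 BAG and other HSP70 regulators 2 passed for the difference between the sexes (29.5% of all genes), Hspbp1 and Stub1. They differed by 0.64 and 0.60, with the higher change in males. Without the GC and length trend these differences were 0.11 and 0.09 and did not pass. Of 3 mitochondrial and collagen chaperones 1 passed (29.5% of all genes), Hspd1, at -0.49 in the male pairs (edgeR adjusted p 0.0117).

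**Figure D4:**
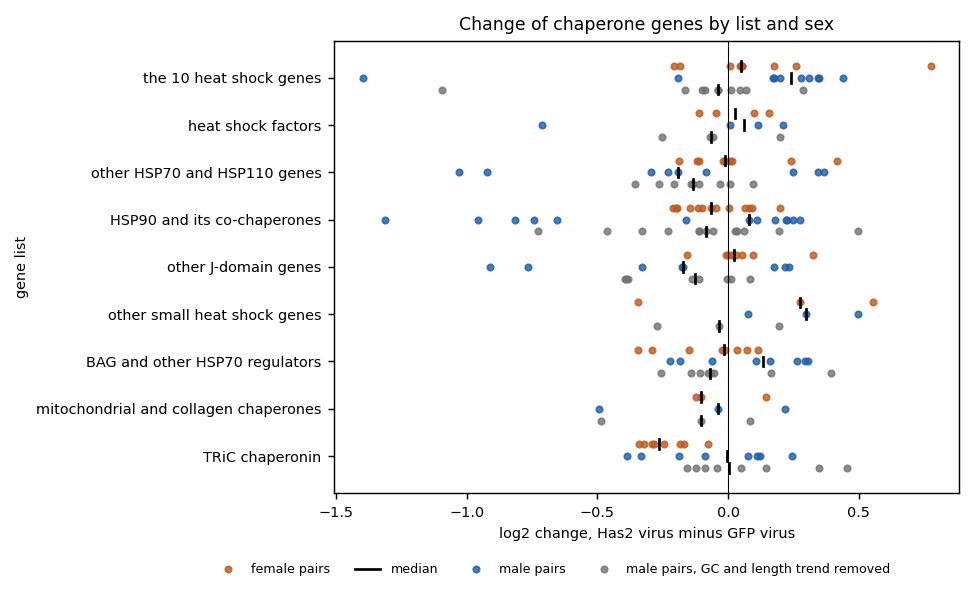
Log2 change from GFP to Has2 for female pairs, for male pairs and for male pairs without the GC and length trend, for the 10 heat shock genes and the tested genes of 8 chaperone lists; each point is a gene, black bars are medians and the line at 0 marks no change. In the male pairs the lowest points are Hsp90aa1 at -1.40 in the top row and Cacybp at -1.31 among the HSP90 co-chaperones, which lie at -1.09 and -0.73 without the trend.

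The 10 genes did not share one pattern over the 8 libraries. Hspa1a and Hspa1b went together (Pearson r 0.89 over 8 libraries), as did Cryab and Hspa8 (0.86), whereas Hsph1 and Hspb1 were opposed (-0.94) and so were Hspa1a and Dnajb1 (-0.76). These values describe libraries that share preparations, GC content and sex, and carry no test. The genes whose level was most like the mean of the standardized levels of Cryab, Hspb1, Hspb8 and Bag3 were Cpsf3 (r 0.99), Tecr (0.98), Cdk16 (0.98), Vat1 (0.97) and Actr1b (0.97), out of 10294 genes compared over the 8 libraries. For the mean of the other 6 they were Rad23b (0.90), Irf2 (0.90), Fip1l1 (0.89), Hspb6 (0.89) and Cdk5rap2 (0.89).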

How the data were processed

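Poly(A) RNA was sequenced with a stranded mRNA kit, per the labels. What the authors deposited is a table of unnormalised read counts, a row per Ensembl gene and a column for each of the 8 libraries. Per the submitters' processing notes, FastQC 0.10.1, HTSeq 0.10.0 and the mouse build mm39 (GRCm39) were used; for the aligner, the annotation and the strand setting the sources used here give nothing, so reads of overlapping or near-identical genes may be divided in unknown ways, and the virus may add to Has2 counts. Symbols, GC content and length came from GENCODE M21, with 52081 of 55414 identifiers matched. GC content and length are those of the longest annotated transcript of each gene, which need not be the one expressed here. Promoters came from RefSeq on GRCm38.p6; no other coordinates are given, since the counts are on another build.

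Tests were run with edgeR 4.0.16 in R 4.3.3 (quasi-likelihood F-test, TMM scaling, default filter, adjusted p threshold 0.05), for the viruses with the replicate number as a block, for the sexes with a virus change per sex, and for the sexes within the GFP libraries. SE is the change divided by the root of F. The block was used because libraries of one number share a preparation identifier; the deviations of paired libraries from their group means had correlations of 0.69, 0.60, 0.60 and 0.40. The median SE of a log2 change was 0.14 with the block and 0.23 without it. Any pair of libraries within a group differed by more than sampling noise, with a chi-square of at least 30.1 per degree of freedom. Other settings were no block, RLE scaling, library totals, other filters, DESeq2 1.42.0, limma-voom (limma 3.58.1), removal of spline trends in GC content and in log2 length (5 degrees of freedom each), the summed HSP70 copies, other thresholds and leaving out libraries; fits within one sex were added after seeing the data. The statistical scripts were tested on simulated data.

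The 10 genes, the chaperone lists and the markers were chosen with earlier results of these data known. Named beside the 10 are up to 3 genes per list with the smallest p in each of both comparisons and the 5 genes most correlated with each of 2 fixed subsets (log2 CPM, pseudocount 2, mean of at least 5 CPM).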

Additional observations from a re-analysis of the deposited data

Results flagged for a closer look

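Of 24 groups of 4 libraries examined (10 genes, the HSP90 ratio and the HSP70 share, under each virus), 1 held a library far from the others, where chance alone flags about 1 in 20. It was Cryab in GFP replicate 2, at 208 CPM, while the other GFP libraries lay at 164 to 165 CPM; this library stood among the Has2 libraries. The gap took up 0.978 of the range of the group (Dixon's ratio).

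For 5 of the 10 genes the change with the Has2 virus differed between male and female pairs by a test of the difference itself. Of all genes tested 29.5% differed. Without the replicate block 0 of the 10 and 0% of all genes passed that test, and the values here are from the fit with the block. Male minus female, the log2 differences were -1.45 for Hsp90aa1, -0.43 for Hspa1b, 0.43 for Hspb1, 0.38 for Hspb8 and 0.36 for Dnajb1. Of these, Hsp90aa1 and Hspa1b also differed after the GC and length trend was removed, at -1.12 and -0.83, and the difference of Hsp90aa1 passed with each pair left out in turn, where the lone pair left in a sex is assumed to vary like the other sex. For Hspa1a and Hspa1b summed the difference was -0.29 and did not pass (edgeR adjusted p 0.131). With the trend removed that of the sum was -0.70 and passed (edgeR adjusted p 0.00984). With 2 pairs per sex and sex nested in the preparation series, sex and preparation cannot be told apart. The part of GC content in these differences was not tested gene by gene.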

How the results depend on the processing

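The virus comparison called 1 of all genes, Has2, and 0 of the 10 heat shock genes. Over all genes the count became 0 at an adjusted p under 0.01 and with library totals, 118 with no filter on low counts, 61 with DESeq2, 2 without the GC and length trend, 732 in female pairs alone and 5035 in male pairs alone, and 0 to 1 with a pair left out. Of the 10 genes, DESeq2 called 1 (61 of all 15150), female pairs alone 1 (732 of 15312) and male pairs alone 6 (5035 of 15295). For the difference between the sexes (4470 genes, 5 of the 10), an adjusted p under 0.01 gave 2524 and 1, removing the trend 1700 and 2, and leaving out a pair 2353 to 4972 and 1 to 3. Library totals, no filter and DESeq2 each called 3 of the 10. Over all genes these settings called 4154 of 15150, 4543 of 28130 and 3589 of 15150. Without the replicate block the pairing is not used, and 0 genes and 0 of the 10 passed for that difference; the block changed no call of the 10 in the virus comparison. For the sexes in the GFP libraries (4 genes, 0 of the 10), the counts of genes were 0 at an adjusted p under 0.01, 2 with library totals, 7 with no filter, 88 with DESeq2 and 0 to 1198 with a library left out, with 0 to 1 of the 10; no paired analysis was possible because sex is nested in the replicate number.

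Some changes, most of them near 0, turned sign. In the virus comparison Dnajb1 became 0.014 without the block, with RLE scaling and with DESeq2, 0.011 at 1 CPM in 4 libraries, 0.023 with no filter, 0.17 in male pairs alone, and -0.060 to 0.10 with a pair left out (-0.066 to 0.10 with a library left out and no block). Hspb8 became 0.0010 with RLE scaling and DESeq2, 0.011 with no filter, 0.17 in male pairs alone, and -0.071 to 0.063 with a pair left out (-0.076 to 0.11 with a library left out and no block). In female pairs alone Hsph1 was 0.062 and Hsp90aa1 0.068; Hsph1 was -0.16 to 0.019 with a library left out. Without the trend the difference between the sexes was -0.36 for Hspa1a, -0.33 for Cryab, -0.17 for Hspb1, -0.025 for Hspb8, -0.17 for Bag3 and -0.17 for the median of the 10, and the male change of Bag3 was -0.037. Hspa1a was -0.0013 with library totals, -0.29 when summed with Hspa1b and -0.17 to 0.27 with a pair left out. In the GFP libraries, library totals gave 0.013 for the median, 0.043 for Hspa8 and 0.028 for Hspb8; removing the trend gave -0.011 for Hsp90aa1. Summing the GFP and the Has2 library of each preparation mixes both viruses, so those values are not of GFP cultures alone. The sums gave 0.017 for the median, 0.032 for Hspa8, -0.54 for Hsp90aa1, 0.0027 for Hspb1, 0.13 for Hspb8 and 0.038 for Bag3. With a GFP library left out and no summing, the ranges were -0.24 to 0.054 for Bag3, -0.34 to 0.012 for Cryab and -0.16 to 0.25 for Hsp90aa1. They were -0.16 to 0.074 for Hspa8, -0.52 to 0.11 for Hspb1, -0.26 to 0.16 for Hspb8 and -0.036 to 0.37 for Hsph1. The causes of these changes were not tested. Of 684 values under alternatives, 474 log2 values and 71 counts stayed the same in direction and side of the threshold or, for counts, within 1.5 times.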
